A study of Mus musculus with 80 samples.

Results

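The genes described here are 8 protease inhibitor genes of the mouse Serpina cluster on chromosome 12, namely Serpina1a, Serpina1b, Serpina1c, Serpina1d and Serpina1e, and Serpina3k, Serpina3m and Serpina3n. They were taken by symbol from the 22103 gene rows of the deposited count table. All 8 symbols were found, and all 8 were among the 15197 genes that passed the filter on low counts. The data are liver RNA sequencing counts from 20 female mice of the strain labelled Balb-C, 10 to 12 weeks old, with 4 mice and 4 libraries per group. The mice were dosed by gavage on 7 days with PFESA-BP2 (Nafion byproduct 2), a perfluoroalkyl ether sulfonic acid, at daily doses of 0.03, 0.3, 3.0 or 6.0 mg/kg. The control group received vehicle only. The sample titles call that vehicle DMSO while the protocol text names deionized water, so the vehicle is not settled here. No group carried a genetic change, and each library came from a single mouse.

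Serpins are inhibitors that trap a protease by offering it a bait loop. The cut loop swings into the body of the inhibitor and carries the protease along, so that both are used up. The Serpina1 genes encode the mouse forms of alpha-1-antitrypsin, the main plasma inhibitor of neutrophil elastase. Humans have a single antitrypsin gene, and a shortage of its product exposes lung tissue to elastase. The Serpina3 genes are the expanded mouse counterpart of human antichymotrypsin, and their products inhibit different proteases because their bait loops differ. Serpina3k encodes contrapsin, an inhibitor of trypsin-like proteases. Serpina3n encodes an inhibitor of granzyme B and cathepsin G and is known as an acute phase gene, while Serpina3m is a close relative of Serpina3k. Hepatocytes make most of these proteins and secrete them into plasma.

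The 5 Serpina1 genes lie on the minus strand of chromosome 12 between positions 103728156 and 103958975 (GRCm38, GENCODE M21), a span of 230.8 kb. The 3 Serpina3 genes lie on the plus strand between 104338486 and 104414329, a span of 75.84 kb, and all 8 fit within 686.2 kb. The longest open reading frames of the Serpina1 genes were 91.6% to 96.8% identical in pairs, with gaps counted as differences. That of Serpina1a has 1311 bases and each of the others 1242, which lowers every pair with Serpina1a. Pairs without Serpina1a were 96.3% to 96.8% identical. Serpina3k and Serpina3m were 91.2% identical, Serpina3k and Serpina3n 83.0%, and Serpina3m and Serpina3n 85.5%. RefSeq promoters (GRCm38.p6, 250 bases before to 50 after the start) were matched for 6 of the 8 genes, the 5 Serpina1 genes and Serpina3n. The stretches below were cut around the letters GTTAAT in the Serpina1 genes and just before the start in Serpina3n. The Serpina1 stretches are nearly alike, although the genes differed widely in level. The rest of the promoters was not compared. Capitals mark the letters GTTAAT, a motif known from promoters of liver genes. Each stretch has 74 bases, 5′ to 3′ on the strand of the gene.
Serpina1a, chr12:103863627-103863700, minus strand: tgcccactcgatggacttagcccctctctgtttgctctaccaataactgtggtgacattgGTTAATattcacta
Serpina1b, chr12:103738202-103738275, minus strand: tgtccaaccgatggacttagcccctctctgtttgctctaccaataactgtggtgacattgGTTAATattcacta
Serpina1c, chr12:103904964-103905037, minus strand: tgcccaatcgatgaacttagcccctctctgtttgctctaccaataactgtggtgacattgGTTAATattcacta
Serpina1d, chr12:103773636-103773709, minus strand: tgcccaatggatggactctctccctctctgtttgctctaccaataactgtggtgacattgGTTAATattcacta
Serpina1e, chr12:103956962-103957035, minus strand: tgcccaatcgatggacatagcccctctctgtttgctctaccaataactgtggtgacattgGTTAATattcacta
Serpina3n, chr12:104406634-104406707, plus strand: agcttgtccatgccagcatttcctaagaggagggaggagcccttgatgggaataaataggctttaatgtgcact

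Any pair of the Serpina1 stretches, lined up at GTTAAT, differed at 2 to 7 of 74 bases. The stretch just before the start of Serpina3n differed from them at 53 or 54. That stretch was not aligned to the others, so this count says nothing about how alike the promoters are. The letters GTTAAT, searched on both strands, were found in 5 of 5 Serpina1 promoters and not in that of Serpina3n, while 7.1% of 32851 RefSeq promoters of the same length hold them. The C/EBP motif TTGCNNAA was found in the promoters of Serpina1a, Serpina1b, Serpina1d and Serpina1e and in 10.8% of all promoters. In Serpina1a it lay at base 25 after the start, and in Serpina1b, Serpina1d and Serpina1e at -161, -149 and -211. The STAT motif TTCNNNGAA was found in 0 of the 6 promoters and in 8.3% of all. A match is only a match of letters, and a missing match says only that those letters are not in this window. The Serpina1 genes are close paralogs, so matches in several of their promoters are not independent. Their number is therefore not weighed against the share of all promoters.

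Because the paralogs are so alike, short reads cannot always be given to 1 of them. Of all stretches of 50 bases in the longest annotated transcript, 74.2% in Serpina1c and 67.4% in Serpina1a also occurred in another gene. The share was 50.9% in Serpina1d, 35.8% in Serpina1b and 35.6% in Serpina1e. It was 19.1% in Serpina3m, 14.0% in Serpina3k and 6.90% in Serpina3n. The sources used here do not say how the counting divided shared reads, so the split between Serpina1 genes is uncertain, and less so for Serpina3. Positions, transcripts and promoters given here are those of the reference build GRCm38. Whether the mice labelled Balb-C carry the same genes and sequences was not tested. The annotated span of Serpina1b also covers that of Serpina1d, and Serpina3k and Serpina3m share an annotated start.

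Library totals ranged from 13086755 to 21466978 counts. Within the groups, 5 libraries (3, 11, 15, 19 and 23, 1 in each group) stood apart from the other 15 on the first component of within-group variation, which held 42.7% of it. Each has the third of its group's 4 library numbers, which the labels do not tie to a batch or an animal. This split was found in the data and is no group of the study, so it is described with no test. Fits with a term for these 5 libraries, or without them, are given only as alternative settings. The 5 were picked by the within-group spread, which such fits lower, so calls gained there are no support. Levels are given as CPM, which puts the counts of all libraries on 1 scale, with the SD of the 4 mice of a group. Changes are log2 fold changes with their standard error (SE) from edgeR's quasi-likelihood test across all genes tested, and the verbs rose and fell are kept for genes with an adjusted p under 0.05. In bulk liver RNA, fewer cells of a type and less RNA per cell cannot be told apart.

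Serpina3k was the most abundant of the 8 genes in the control livers and the one that changed most. Its level in the 4 controls was 18040, 21020, 20180 and 14210 CPM. At 0.03 mg/kg-day it was 6692, 12430, 11450 and 7831 CPM, and at 0.3 mg/kg-day 8631, 4928, 8789 and 6257 CPM. The 3.0 mg/kg-day livers had 7646, 7689, 9995 and 5582 CPM, and the 6.0 mg/kg-day livers 5123, 3031, 3395 and 4221 CPM. All 16 treated mice thus lay below the lowest control, and the 4 mice at 6.0 mg/kg-day also lay below all 4 at 3.0 mg/kg-day. Means were 18360 ± 3039, 9600 ± 2769, 7151 ± 1881, 7728 ± 1803 and 3942 ± 931 CPM in order of dose (SD, n = 4 each).

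Against the controls, Serpina3k fell by 1.36 ± 0.24 (SE) on the log2 scale at 0.3 mg/kg-day (adjusted p = 0.0215). It fell by 1.25 ± 0.24 at 3.0 mg/kg-day (adjusted p = 0.00308) and by 2.22 ± 0.25 at 6.0 mg/kg-day (adjusted p = 2.06e-06), which left 21.5% of the control level. The change of -0.94 ± 0.24 at 0.03 mg/kg-day did not pass over all genes (adjusted p = 0.791, p = 0.000987 before adjustment), although the groups did not overlap. From 3.0 to 6.0 mg/kg-day it fell by 0.97 ± 0.24 (adjusted p = 0.0412). It passed the joint test of any dose (adjusted p = 1.57e-05) and the test of a slope over the dose ranks (-0.47 ± 0.06 log2 per step, adjusted p = 4.92e-06).

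The falls of Serpina3k at 3.0 mg/kg-day and at 6.0 mg/kg-day passed under each of 16 other settings, with log2 changes of -1.40 to -1.12 and of -2.36 to -2.09. At 0.3 mg/kg-day the call was lost without control 1 (adjusted p = 0.0514), control 2 (0.0677), library 14 (0.0795) or library 16 (0.0987), with log2 changes of -1.37, -1.29, -1.22 and -1.30. The call from 3.0 to 6.0 mg/kg-day was lost without library 17 (adjusted p = 0.106), 18 (0.0967), 19 (0.103), 22 (0.171) or 24 (0.0682), and in a fit of those groups alone (0.142). Without the 5 libraries apart, the log2 change at 6.0 mg/kg-day was -2.09 (adjusted p = 1.11e-05) and that between the top doses -0.75 (adjusted p = 0.0633).

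Serpina3m followed at a lower level. The controls had 1124, 1181, 1313 and 705.4 CPM, and the 0.03 mg/kg-day livers 597.6, 738.7, 742.1 and 541.5 CPM. The 0.3 mg/kg-day livers had 662, 499.3, 916.6 and 580.6 CPM, the 3.0 mg/kg-day livers 607.4, 639.9, 832.7 and 601.8 CPM, and the 6.0 mg/kg-day livers 579.2, 545, 549.1 and 450.6 CPM. Control 4 was far below the other 3 controls and lay among the mice of the 3 lower doses, so those groups overlapped the control, while the 6.0 mg/kg-day group did not. Serpina3m fell at 3.0 mg/kg-day (log2 -0.69 ± 0.20, adjusted p = 0.0470) and at 6.0 mg/kg-day (log2 -1.03 ± 0.20, adjusted p = 0.000697), from a mean of 1081 ± 263 to 531 ± 55.7 CPM. The changes of -0.72 ± 0.20 at 0.03 and -0.70 ± 0.20 at 0.3 mg/kg-day were of like size but did not pass (adjusted p = 0.873 and 0.165).

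The call of Serpina3m at 6.0 mg/kg-day held under 16 of 16 other settings, that at 3.0 mg/kg-day under 6. At 3.0 mg/kg-day the adjusted p was 0.107, 0.124 and 0.148 without control 1, 2 and 3, and 0.120, 0.117 and 0.168 without library 17, 18 and 20. Without control 4 it was 0.00967 there, and at 0.3 mg/kg-day 0.0484. Without the 5 libraries apart, Serpina3m also passed at 0.3 mg/kg-day (log2 -0.79, adjusted p = 0.0391). Those libraries were picked by the within-group spread, so this added call is no support. In the main fit Serpina3m passed the joint test (adjusted p = 0.00465) and the slope (-0.21 ± 0.05 log2 per dose step, adjusted p = 0.00252).

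Serpina3n, the acute phase member, stayed near its control level up to 0.3 mg/kg-day and was lowest at the top dose. It had 896.6, 893.6, 703.2 and 900.3 CPM in the controls, where library 3, one of the 5 apart, was the low one. The 0.03 mg/kg-day livers had 945.4, 840.8, 709.2 and 785.3 CPM, and the 0.3 mg/kg-day livers 831.3, 780, 751.4 and 857.3 CPM. With 3.0 mg/kg-day the values were 837.3, 753.1, 650.6 and 677.7 CPM, and with 6.0 mg/kg-day 636.7, 506.8, 600.1 and 652.2 CPM. Only the 6.0 mg/kg-day group lay wholly below the controls. Serpina3n fell there by 0.50 ± 0.12 on the log2 scale (adjusted p = 0.00611), from a mean of 848 ± 96.9 to 599 ± 65.2 CPM. The changes of -0.05 ± 0.12, -0.08 ± 0.12 and -0.22 ± 0.12 at the lower doses did not pass (adjusted p = 1, 0.938 and 0.481). The joint test (adjusted p = 0.0299) and the slope (-0.12 ± 0.03 log2 per step, adjusted p = 0.00565) passed. In a fit of the control and 6.0 mg/kg-day groups alone, the call was lost (log2 -0.50, adjusted p = 0.0591).

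**Figure D1:**
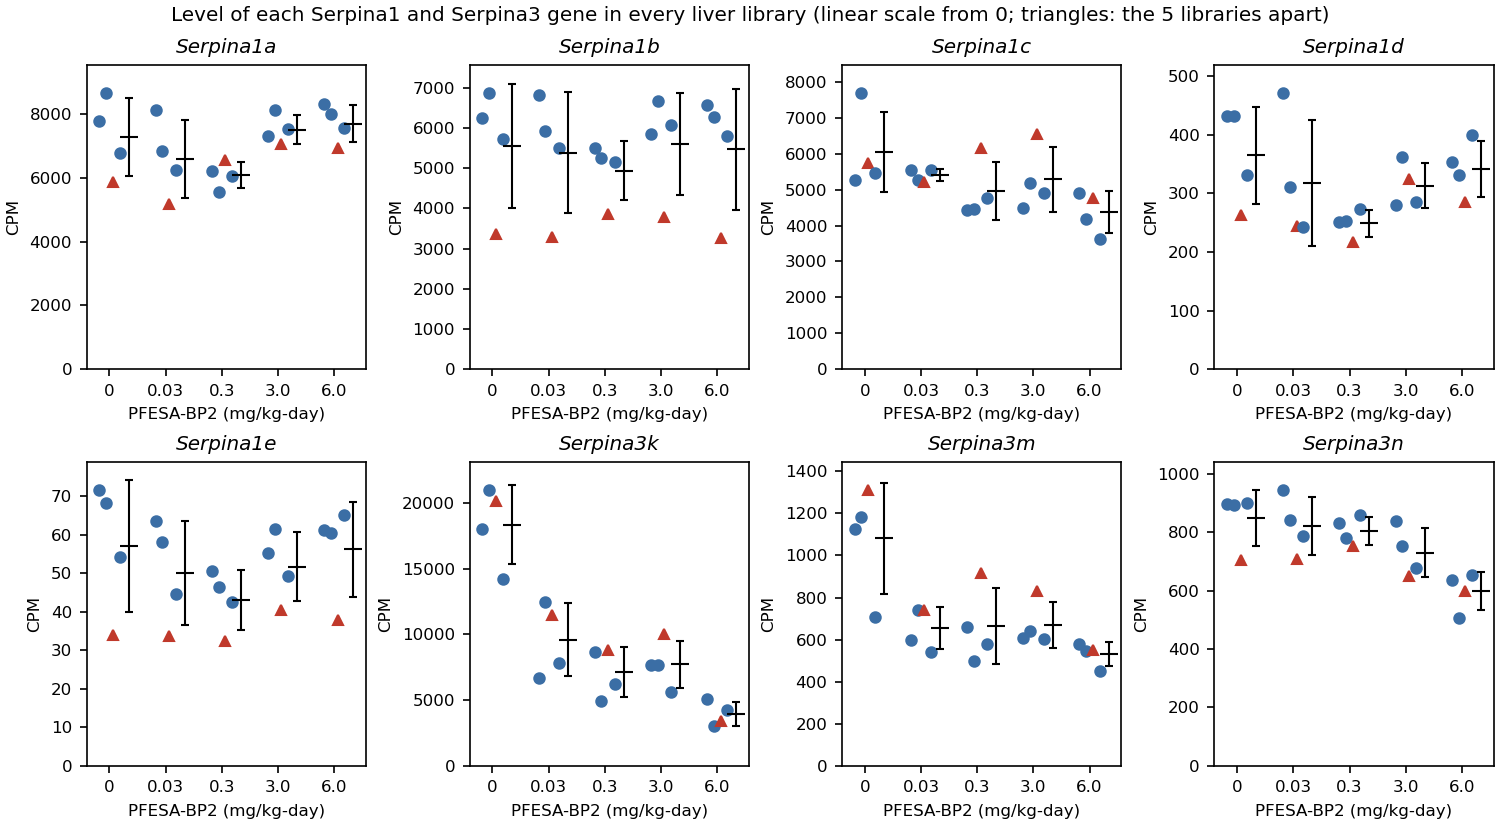
Level of each of the 8 genes in CPM (linear scale from 0) against the PFESA-BP2 dose in mg/kg-day, with 1 point per liver library and the mean with its SD (n = 4) beside each group; red triangles are the 5 libraries that stood apart (3, 11, 15, 19 and 23) and blue circles the other 15. Serpina3k fell from a mean of 18360 to 3942 CPM at 6.0 mg/kg-day, and the red triangles lie below the circles of their group for Serpina1b and Serpina1e in all 5 groups.

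The antitrypsin genes moved less. Serpina1a, the most abundant Serpina1 gene by counts, had 5881 to 8673 CPM in the controls and 6941 to 8309 CPM at 6.0 mg/kg-day, so the groups overlapped. Its log2 change there was 0.08 ± 0.15 (adjusted p = 0.736). Serpina1b had 3358 to 6876 CPM in the controls and 3266 to 6570 CPM at 6.0 mg/kg-day, with a change of -0.02 ± 0.26 (adjusted p = 0.962). The wide range of Serpina1b came with the libraries apart, described below.

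Serpina1c was the only Serpina1 gene with a call, and only at the top dose. The controls had 5279, 7696, 5746 and 5450 CPM, and the 6.0 mg/kg-day livers 4906, 4171, 4756 and 3627 CPM. These groups did not overlap, and control 2 stood well above the other controls. Serpina1c fell by 0.47 ± 0.16 on the log2 scale (adjusted p = 0.0392), from 6043 ± 1119 to 4365 ± 585 CPM. At 0.03, 0.3 and 3.0 mg/kg-day the means were 5400 ± 173, 4953 ± 811 and 5284 ± 895 CPM, with log2 changes of -0.16, -0.29 and -0.19 that did not pass (adjusted p = 1, 0.690 and 0.686). The call at 6.0 mg/kg-day held under 10 of 16 other settings. It was lost without control 2 (log2 -0.33, adjusted p = 0.148), control 3 (0.0507), library 22 (0.101) or library 24 (0.115), without the filter on low counts (0.0543) and in the fit of these groups alone (0.132). Without the 5 libraries apart it held (log2 -0.52, adjusted p = 0.0106). The slope over dose ranks did not pass (adjusted p = 0.0502). Of the stretches of 50 bases in Serpina1c, 69.4% also occur in Serpina1a. The Serpina1c share of Serpina1 counts was 31.6% ± 4.66 in the controls and 24.6% ± 4.59 at 6.0 mg/kg-day. That of Serpina1a was 37.8% ± 1.31 and 43.1% ± 1.79. Whether the division of shared reads had a part in the Serpina1c call was not tested.

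Serpina1d and Serpina1e were the minor antitrypsin genes. Serpina1d had 432.5, 432.6, 263.4 and 332.1 CPM in the controls and 353.4, 331.4, 285 and 400.4 CPM at 6.0 mg/kg-day, with a change of -0.09 ± 0.19 (adjusted p = 0.773). Its lowest group was 0.3 mg/kg-day, with 217.5 to 274.2 CPM and a change of -0.55 ± 0.19 that did not pass (adjusted p = 0.342). Serpina1e had 33.91 to 71.74 CPM in the controls and 37.90 to 65.17 CPM at 6.0 mg/kg-day, with a change of -0.02 ± 0.23 (adjusted p = 0.957). The sign of the Serpina1e change at 6.0 mg/kg-day turned with the scaling or the libraries used and is not read here.

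**Figure D2:**
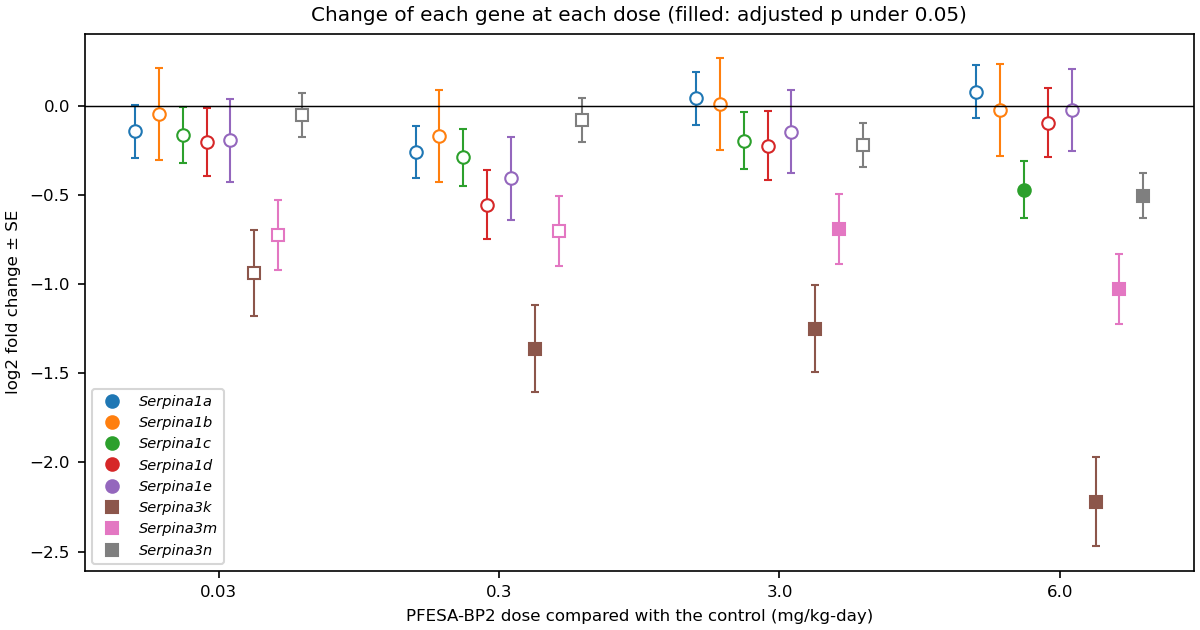
Log2 fold change of each gene at each dose against the control (y axis) by dose in mg/kg-day (x axis), with bars of 1 SE from edgeR's fit; filled symbols passed at an adjusted p under 0.05, circles are Serpina1 and squares Serpina3 genes. Serpina3k reached -2.22 at 6.0 mg/kg-day, where Serpina3m, Serpina3n and Serpina1c were also filled.

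Counted over the 8 genes, 0 passed at 0.03 mg/kg-day against a background of 0% of all genes tested. At that dose 565 of the 15197 genes tested had an unadjusted p under 0.05 in edgeR, fewer than that threshold gives when no gene changes. In DESeq2 or limma-voom 0 of the 8 passed. One of the 8 had fallen at 0.3 mg/kg-day, where 0.29% of all genes passed and 0.151% passed as lower. At 3.0 mg/kg-day 2 had fallen, where 4.61% of all genes passed and 1.43% passed as lower, and at 6.0 mg/kg-day 4 had fallen, where 22.4% passed and 11.2% passed as lower. From 3.0 to 6.0 mg/kg-day 1 had fallen, where 2.09% passed and 1.06% passed as lower. The joint test was passed by 3 of the 8 genes and 21.4% of all genes. The slope was passed by 3, all downwards, and by 26.4% of all genes, of which the downward ones made 12.7% of those tested. None of the 8 rose in any of these comparisons.

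Treated mice lay wholly below the controls for 1, 1, 1 and 4 of the 8 genes in order of dose, while 1.44%, 2.97%, 4.95% and 8.86% of all genes tested did so. The 6.0 mg/kg-day mice lay wholly below the 3.0 mg/kg-day mice for Serpina3k and Serpina3m, and 3.2% of all genes did so. The median log2 change of the 8 genes was -0.18, -0.35, -0.21 and -0.28, and that of all genes -0.01, -0.02, -0.02 and -0.02. These comparisons share their 4 control libraries.

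Per kilobase of annotated exon, the order of the genes changed with dose. The length is that of all annotated exons of a gene together, 2415 bases for Serpina1b, whose longest transcript has 1762. The place of Serpina1b depends on that length, and the order of the Serpina1 genes on how shared reads were divided. In the controls Serpina3k led with 8928 ± 1477 CPM per kb, followed by Serpina1c with 4440 ± 822, Serpina1a with 3976 ± 662 and Serpina1b with 2300 ± 637. Serpina3m had 629 ± 153, Serpina3n 411 ± 46.9, Serpina1d 262 ± 59.3 and Serpina1e 35.3 ± 10.6 CPM per kb. Serpina1c and Serpina1a did not differ beyond their spread, and the ranges of Serpina3m and Serpina3n met. At 6.0 mg/kg-day Serpina1a came first with 4208 ± 323 CPM per kb, then Serpina1c with 3207 ± 430, Serpina1b with 2266 ± 623 and Serpina3k with 1917 ± 453. The ranges of Serpina1c and Serpina1b met, Serpina1b and Serpina3k did not differ beyond their spread, nor did Serpina3m (309 ± 32.4), Serpina3n (290 ± 31.6) and Serpina1d (246 ± 34.4), with Serpina1e last at 34.8 ± 7.66 CPM per kb.

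Sums over a family depend less on how shared reads were divided, and they are given as a description. The 3 Serpina3 genes summed to 20290 ± 3243, 11080 ± 2809, 8621 ± 2026, 9128 ± 1886 and 5072 ± 988 CPM in order of dose. Their part of all tested counts went from 2.01% in the controls to 0.498% at 6.0 mg/kg-day. The 5 Serpina1 genes summed to 19300 ± 3517 CPM in the controls and 17940 ± 2095 CPM at 6.0 mg/kg-day, with overlapping ranges. Within the sum of these 3 Serpina3 genes, Serpina3k made up 90.4% ± 0.63 in the controls and 77.3% ± 3.29 at 6.0 mg/kg-day. The share of Serpina3n was 4.30% ± 1.07 and 12.0% ± 1.36 there, and that of Serpina3m 5.27% ± 0.64 and 10.8% ± 2.34. Other Serpina3 genes are outside this sum, so these are not shares of the whole family. Among them is Serpina3c, with a mean of 1634 ± 562 CPM in the controls and 391 ± 188 CPM at 6.0 mg/kg-day.

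**Figure D3:**
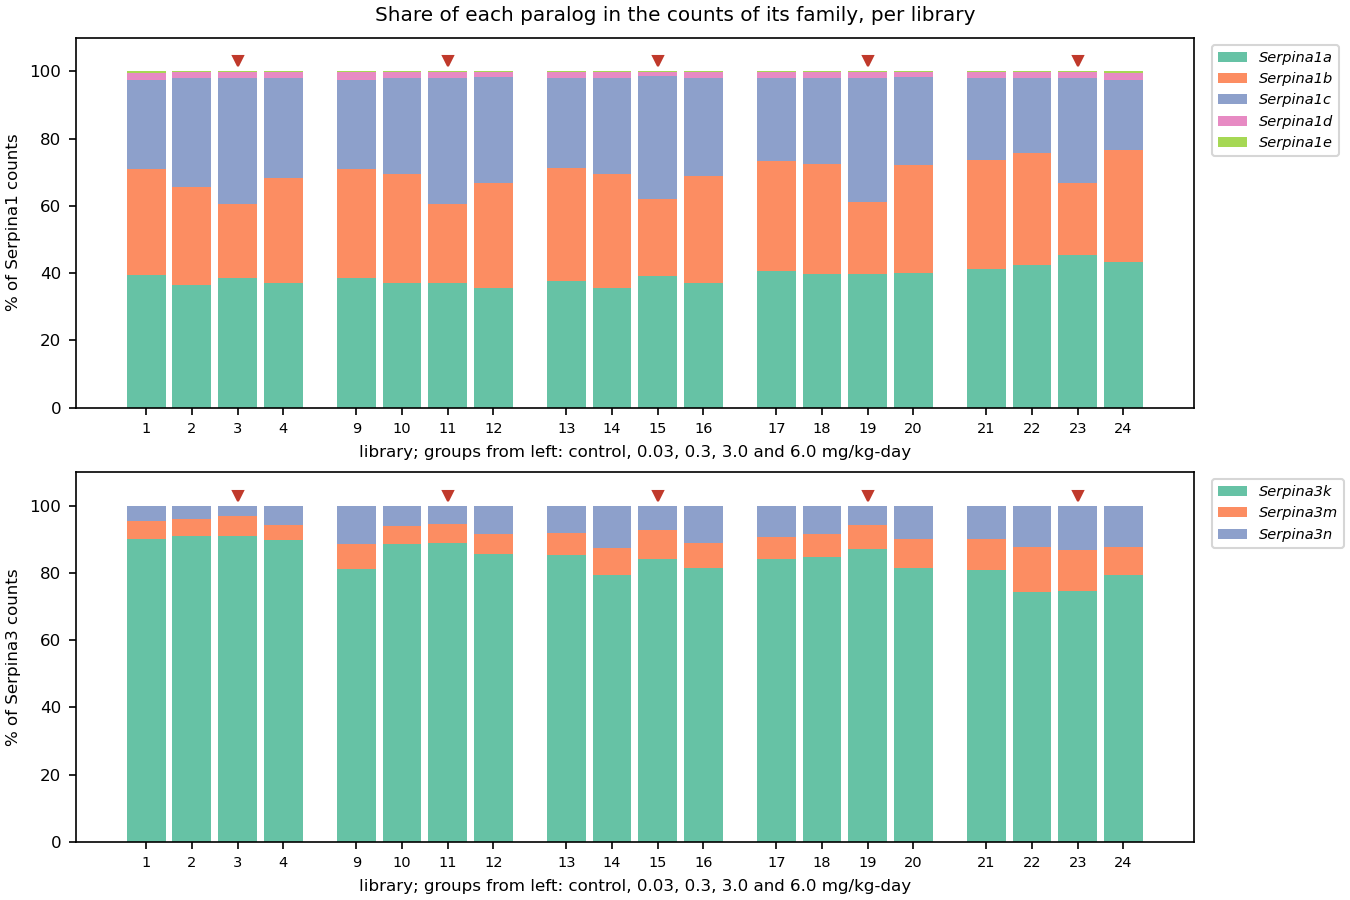
Share of each paralog in the summed counts of the 5 Serpina1 genes (above) or the 3 Serpina3 genes (below) described, in % (y axis). The 20 libraries are on the x axis, grouped by dose from the control at the left. Red marks point to the 5 libraries apart. Other Serpina3 genes, such as Serpina3c, are not in these sums. Serpina1b makes up 21.3% to 23.5% of Serpina1 counts in the marked libraries and 29.0% to 33.7% in the other 15, and the Serpina3k share is lowest at 6.0 mg/kg-day.

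The libraries apart had another mix of Serpina1 genes. Serpina1b made up 22.2% ± 0.99 of Serpina1 counts in the 5 (range 21.3% to 23.5%) and 32.2% ± 1.18 in the other 15 (range 29.0% to 33.7%), so the ranges did not meet. Its level was 3266 to 3870 CPM in the 5 and 5160 to 6876 CPM in the 15. Serpina1e also had lower levels there, 32.49 to 40.54 against 42.63 to 71.74 CPM. Serpina1c made up 35.9% ± 2.71 in the 5 and 26.9% ± 3.22 in the 15. Serpina3m lay above the mean of the other mice of its group in 5 of 5 groups, by 0.06 to 0.66 on the log2 scale. What set these libraries apart was not tested.

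Over the 20 libraries, Serpina3k and Serpina3m varied together (Pearson r = 0.87, and 0.72 after the group means were removed). Serpina1b and Serpina1e did so too (r = 0.91 and 0.94), with the 5 libraries apart low for both. Without those 5 libraries the within-group r of Serpina1b and Serpina1e was 0.71. Serpina1b and Serpina1c had an r of -0.23 within groups over all 20 libraries and of 0.63 over the 15 that did not stand apart. Serpina3k and Serpina3n had an r of 0.61 over all libraries and of -0.09 within groups. These values are descriptions, since the libraries share doses, scaling and, for paralogs, reads.

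The neighbours of the 8 genes were measured as well, and 24 Serpina genes on chromosome 12 were tested in all. Of 18 other clade A serpins listed, 15 were tested, of which 10 fell at the top dose and 1 rose. Serpina7, which is on that list, lies on chromosome X and is no neighbour. Of all genes tested, 22.4% passed at that dose and 11.2% passed as lower. Serpina3a, Serpina5, Serpina9 and Serpina12 had control means of 1.27, 3.47, 1.68 and 2.32 CPM and means of 0.350, 0.493, 0.152 and 0.299 CPM at 6.0 mg/kg-day. Genes this low could pass the filter on low counts through the controls and then be called only as lower, so the count over these genes supports nothing about the locus. Serpina4-ps1, a pseudogene, fell by 5.88 ± 0.63 on the log2 scale (adjusted p = 9.71e-07), from 37.5 ± 22.0 to 0.628 ± 0.239 CPM. Serpina11 fell by 1.60 ± 0.27 (adjusted p = 0.000225), from 98.6 ± 34.6 to 32.6 ± 8.07 CPM. Serpina12, which encodes vaspin, and Serpina9 also fell, from low control levels of 2.32 ± 1.12 and 1.68 ± 0.77 CPM. Of the Serpina3 genes outside the 8, Serpina3c fell by 2.06 ± 0.38 (adjusted p = 0.000464), from 1634 ± 562 to 391 ± 188 CPM. Serpina3i fell by 1.83 ± 0.38 (adjusted p = 0.00131), from 149 ± 41.4 to 41.8 ± 21.3 CPM. Serpina3f, Serpina3g, Serpina3h and Serpina3e-ps did not pass (log2 0.13, 0.09, 0.11 and -0.46). Serpina6, which encodes the corticosteroid-binding globulin of plasma, was the one that rose (log2 0.77 ± 0.15, adjusted p = 0.000989), from a mean of 438 to 748 CPM. Serpina6, Serpina3c and Serpina3i were named after their values were seen.

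**Figure D4:**
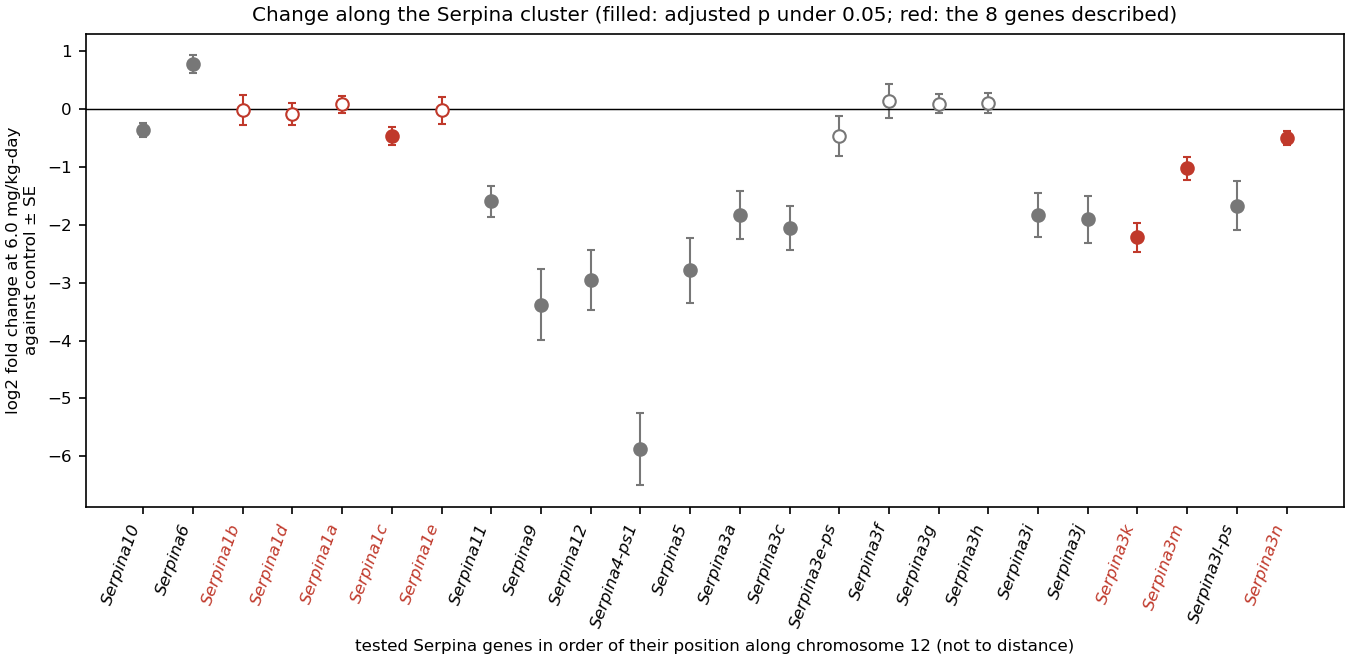
Log2 fold change at 6.0 mg/kg-day against the control (y axis, bars of 1 SE) for the 24 tested Serpina genes in their order along chromosome 12 (x axis, not to distance); filled points passed at an adjusted p under 0.05 and red marks the 8 genes described. Serpina1a, Serpina1b, Serpina1d and Serpina1e lie close to 0 between Serpina6, which rose, and Serpina11, which fell, and Serpina4-ps1 is lowest at -5.88.

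Serpins of other clades and further plasma inhibitors were lower at the top dose in part. Beside the lists here and below, 22.4% of all genes tested passed at 6.0 mg/kg-day and 11.2% passed as lower. The shares at lower doses are given above. Of 7 other plasma serpins, 3 fell and 0 rose (median log2 -0.52). These were Agt, which encodes angiotensinogen (log2 -0.88, adjusted p = 0.00115), Serping1 for C1 inhibitor (log2 -0.58, adjusted p = 0.00654) and Serpinf2 for alpha-2-antiplasmin (log2 -0.53, adjusted p = 0.0185). Of 13 tested inhibitors outside the serpins, 8 fell and 0 rose (median log2 -0.78). Itih2, an inter-alpha-inhibitor heavy chain, went from 1616 ± 125 to 837 ± 95.0 CPM (log2 -0.95, adjusted p = 3.31e-06). The alpha-macroglobulin relatives Pzp and Mug1 went from 6099 ± 267 to 3135 ± 588 CPM and from 6923 ± 1194 to 2728 ± 762 CPM (adjusted p = 1.14e-05 and 1.44e-05). At 3.0 mg/kg-day, 0 of 7 and 3 of 13 had fallen.

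Acute phase proteins did not move as a block. Of 21, 3 rose and 6 fell at 6.0 mg/kg-day (median log2 -0.13). The orosomucoid genes Orm2 and Orm3 rose by 1.86 ± 0.27 and 2.27 ± 0.36 on the log2 scale (adjusted p = 3.97e-05 and 0.00012), while Itih4 and the fibrinogen chain Fgg fell, with log2 changes of -1.03 ± 0.17 and -0.92 ± 0.23 (adjusted p = 0.000125 and 0.00697). Of 15 genes of interleukin 6 and interleukin 1 signalling, 6 fell and 1 rose (median log2 -0.37). The receptor gene Il6ra went from 57.5 ± 14.8 to 12.3 ± 4.72 CPM (log2 -2.23, adjusted p = 1.43e-06), Lifr from 578 ± 23.6 to 279 ± 47.8 CPM, and the signal transducer Stat3 from 87.7 ± 5.51 to 52.7 ± 10.6 CPM.

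Genes of growth hormone and STAT5 signalling were listed because a rat relative of the Serpina3 genes is a classic target of growth hormone. Of 9, 7 fell and 0 rose at 6.0 mg/kg-day (median log2 -0.95). Igfals and Igf1, which encode a plasma carrier subunit and the hormone made in response to growth hormone, both fell, with log2 changes of -1.83 ± 0.16 and -1.74 ± 0.17 (adjusted p = 1.13e-07 and 2.74e-07). Socs2, a feedback inhibitor of this pathway, went from 56.5 ± 21.2 CPM through 19.8 ± 2.64, 14.1 ± 5.51 and 9.16 ± 3.68 to 6.86 ± 3.02 CPM, and Stat5b from 41.3 ± 2.13 to 23.8 ± 4.37 CPM. At 0.3 and 3.0 mg/kg-day 1 and 3 of the 9 had fallen. Of 11 liver transcription factors of the antitrypsin promoter, 7 fell and 0 rose at 6.0 mg/kg-day (median log2 -0.59). They included Prox1 (log2 -0.83, adjusted p = 0.000221) and Foxa3 (log2 -1.44, adjusted p = 0.00117).

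Among 7541 other genes with a mean of 10 CPM or more, those most like each member over the 20 libraries were found by Pearson r of log2 CPM. For Serpina3k these were Slco1a1, an organic anion transporter of hepatocytes (r = 0.92, Spearman rho = 0.95), Serpina4-ps1 (r = 0.92, rho = 0.89) and Trp53inp2 (r = 0.91, rho = 0.93). Serpina3m was most like B430119L08Rik (r = 0.89, rho = 0.91), Trp53inp2 (r = 0.85, rho = 0.83) and Cyp3a44 (r = 0.83, rho = 0.80). Serpina3n was most like complement factor B, Cfb (r = 0.94, rho = 0.95), and the inter-alpha-inhibitor genes Itih4 (r = 0.94, rho = 0.94) and Itih1 (r = 0.94, rho = 0.93).

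For the Serpina1 genes the partners were other ones. Serpina1b was most like C8g (r = 0.98, rho = 0.93), Rbp4 (r = 0.97, rho = 0.97) and Igkc (r = 0.96, rho = 0.96), none of which passed at 6.0 mg/kg-day. Serpina1e was most like Nosip (r = 0.96), Ilk (r = 0.96) and Drg2 (r = 0.95), and Serpina1a like Gstz1 (r = 0.87), Rnf121 (r = 0.86) and Pdia6 (r = 0.86). Serpina1d was most like Arpc2 (r = 0.82), Polr1c (r = 0.82) and Bckdha (r = 0.80). Serpina1c was most like the globin gene Hbb-bt (r = 0.84, rho = 0.83), which fell at 6.0 mg/kg-day (log2 -1.05, adjusted p = 0.0288), then Gm8893 (r = 0.79) and B430119L08Rik (r = 0.73). These values are descriptions over libraries that share doses and scaling, and the 5 libraries apart are among them.

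Markers of liver cell types are given beside these changes. Of 9 tested hepatocyte markers, the cells that make these inhibitors, 5 fell and 0 rose at 6.0 mg/kg-day (median log2 -0.62), and none of the 9 was at 0 in any group. Their summed level was 132300 to 179100 CPM in the controls and 80990 to 112200 CPM at 6.0 mg/kg-day. Most of that sum was Alb, with means of 126700 and 73800 CPM in these groups. The 4 hepatocyte markers that did not pass were Ttr, Apoa1, Apob and Asgr1 (log2 -0.09, -0.39, -0.72 and 0.11). Neutrophil and monocyte markers summed to 5.45 to 7.08 CPM in the controls and 9.37 to 30.4 CPM at 6.0 mg/kg-day, where 1 of 5 tested rose. Elane, the elastase that antitrypsin inhibits, was at 0 in all 4 controls and had 0.0576 to 0.403 CPM at 6.0 mg/kg-day. It had 0 to 0.107 CPM at 0.3 mg/kg-day, and was too low for the filter and not tested. Prtn3, another listed protease, was as low, with means of 0.165 CPM in the controls and 0.107 CPM at 6.0 mg/kg-day. No rise is read from such levels. T and NK cell markers summed to 2.91 to 5.40 CPM in the controls and to 4.04, 108, 8.07 and 2.53 CPM at 6.0 mg/kg-day, where Lck, 1 of 4 tested, rose. Library 22 gave the 108 CPM and also the 30.4 CPM of the neutrophil and monocyte markers, and Lck had 1.21 to 87.7 CPM in that group (mean 24.2 ± 42.4). Kupffer cell markers (295.9 to 362.5 and 223.2 to 513.2 CPM) and stellate cell markers (353.4 to 403.7 and 222 to 393.2 CPM) overlapped between these groups, where 1 of 8 and 3 of 8 fell. The part of cell makeup in the changes of the 8 genes was not tested.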

How the data were processed

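The deposited table holds expected counts per gene, 1 column per library, with the 4 lanes of a library already summed by the authors; the unit was read from the values, of which 58.0% were whole. Per the submitters' processing notes, Partek and the build GRCm38.p5 were used. Aligner, counting method, annotation and use of strand: not given in the sources used here. Expected counts were rounded. The filter filterByExpr removed 6906 of 22103 rows for low counts, libraries were scaled with TMM, and CPM came from edgeR's cpm. Genes were tested with the quasi-likelihood method of edgeR 4.0.16 (R 4.3.3) in 1 fit of 20 mice with a mean per group, 15 residual degrees of freedom and Benjamini-Hochberg adjustment over 15197 genes at 0.05. SE was taken as the size of the change over the root of its F value. The slope used dose ranks. The fit was also run on simulated counts drawn independently for each library. These held nothing like the 5 libraries apart, so they do not show how the fit behaves with such libraries. Alternatives were DESeq2 1.42.0, limma-voom (limma 3.58.1), other scaling, no filter, pairs of groups, left-out libraries and, chosen after seeing the data, a term for 5 libraries apart or their removal. Positions and exon lengths came from GENCODE M21, which held 20992 row symbols (95%). Named were all 8 members, of each of 9 lists up to 4 genes with the lowest adjusted p at the top dose, and the 3 genes most like each member; 1 gene of a list is not reported here. The members and lists were chosen with earlier results of these data known. Of the marker lists, those for sinusoidal endothelium, cholangiocytes, B cells, erythroid cells and adipocytes stand in the closing section, and 5 pancreatic markers were not analysed here.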

Additional observations from a re-analysis of the deposited data

Results flagged for a closer look

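Each of the 8 genes was checked in each group of 4 libraries for a library far from the others (Dixon's criterion at the 95% level), which made 40 sets. Of these, 2 were flagged, and chance flags about 1 in 20. Serpina3m in library 19 at 3.0 mg/kg-day was 832.7 CPM, above 601.8 to 639.9 CPM in the other 3 mice of that group. Serpina3n in library 3 of the controls was 703.2 CPM, below 893.6 to 900.3 CPM in the other 3. Both libraries are among the 5 that stood apart.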

How the results depend on the processing

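Against the control at 0.3 mg/kg-day, 1 of the 8 genes passed; 2 passed when the 5 libraries apart had a term of their own and 2 without them, and 0 to 2 when single libraries were left out. At 3.0 mg/kg-day 2 passed. With RLE size factors 1 passed, without the filter on low counts 1, with limma-voom 1 and in the fit of the compared groups alone 1, and 1 to 2 with single libraries left out. At 6.0 mg/kg-day 4 passed, 2 in the fit of the compared groups alone, and 3 or 4 under the other 15 settings. From 3.0 to 6.0 mg/kg-day 1 passed, 0 in the fit of those groups alone, 0 without the 5 libraries apart, and 0 to 1 with single libraries left out. The counts at 0.03 mg/kg-day, in the joint test and for the slope stayed within 1.5 times under each of 16, 27 and 28 settings. The signs that turned belonged to changes that did not pass. Without the 5 libraries apart the log2 change at 3.0 mg/kg-day was -0.0040 for Serpina1a and -0.0056 for Serpina1b, and at 6.0 mg/kg-day 0.0021 for Serpina1b. Upper quartile scaling gave 0.013 for Serpina1b and 0.012 for Serpina1e at 6.0 mg/kg-day, and limma-voom 0.0034 for Serpina1e. With single libraries left out, Serpina1b ranged from -0.22 to 0.14 at 0.03, from -0.17 to 0.16 at 3.0 and from -0.20 to 0.16 at 6.0 mg/kg-day. Serpina3n ranged from -0.13 to 0.025 at 0.03 mg/kg-day, Serpina1a from -0.047 to 0.14 at 3.0 and from -0.0096 to 0.18 at 6.0 mg/kg-day, and Serpina1e from -0.20 to 0.13 at 6.0 mg/kg-day. The cause was not tested.

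Over all genes, 0 passed at 0.03 mg/kg-day with edgeR, 10 with DESeq2 and 1 with limma-voom. With that term 13, 306, 1393 and 5639 passed in order of dose, and without the 5 libraries 2, 158, 854 and 5228, against 0, 44, 701 and 3405. Because the 5 were picked by the within-group spread, higher counts in these fits are no support. DESeq2 gave 186 at 0.3 mg/kg-day. The fit of the compared groups alone gave 1726 at 6.0 mg/kg-day. From 3.0 to 6.0 mg/kg-day the count was 318, with 658 in DESeq2, 0 in the fit of those groups alone, 1400 with the term and 1476 without the 5 libraries. The joint test gave 3255, 6035 with the term and 5522 without them. With single libraries left out, counts ran from 12 to 51 at 0.3, 451 to 681 at 3.0, 2346 to 4653 at 6.0 mg/kg-day and 110 to 969 between the top doses. No paired analysis was possible because the labels give the groups no shared replicate numbers. The 5 libraries apart hold the third number in each group, and the fits above with and without them are the ones that bear on that place.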

Other observations

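Few of the proteases that these serpins bind passed the filter on low counts. Of 14 listed, 8 were matched and 4 were tested, which do not include Elane, and these 4 fell at 6.0 mg/kg-day. These were the coagulation and contact proteases F11 (170 ± 14.9 to 59.7 ± 16.5 CPM, adjusted p = 4.70e-07), Klkb1 (684 ± 149 to 415 ± 87.2 CPM, adjusted p = 0.00191) and F2 (1145 ± 237 to 752 ± 135 CPM, adjusted p = 0.0163), and the elastase Cela1 (4.96 ± 1.03 to 1.55 ± 0.51 CPM, adjusted p = 7.38e-05). Of 17 genes for the folding and export of antitrypsin, 1 rose and 2 fell (median log2 -0.03). As 22.4% of all genes tested passed at this dose, this list held no more calls than genes at large. Mcfd2, part of a cargo receptor for export from the endoplasmic reticulum, rose from 266 ± 27.8 to 367 ± 38.8 CPM (adjusted p = 0.00714). Sel1l, an adaptor for the disposal of misfolded proteins, went from 157 ± 8.04 to 115 ± 27.5 CPM (adjusted p = 0.0234), and the mannosidase Man1a from 370 ± 49.8 to 283 ± 44.2 CPM (adjusted p = 0.0308).

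Other markers at 6.0 mg/kg-day, where 22.4% of all genes tested passed, were as follows. Of 7 for sinusoidal endothelium 2 rose and 1 fell, and of 5 tested for erythroid cells 1 rose and 1 fell. For cholangiocytes 0 of 5 and for B cells 0 of 3 passed in edgeR's test. Of 4 adipocyte markers, Cidec alone was tested and rose (log2 2.09), from 0.950 to 4.07 CPM. Adipoq had means of 0.110 and 0.0144 CPM, and Plin1 and Lep were not analysed here.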
